A study of Homo sapiens with 5 samples.

Results

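The genes of human chromosome 14 were followed in 5 arrays of 3 related renal cell carcinoma lines. The members were all probe sets that the platform table pairs with exactly 1 gene, whose gene lies on chromosome 14, and whose log2 signal was at least 6 in 2 or more arrays. CRIP1, CRIP2, HIF1A, EGLN3, FOS, TGFB3, SEL1L, MMP14, BMP4 and IFI27 were left out by name. This gave 889 probe sets of 463 genes, out of 54675 probe sets on the array and 27917 named probe sets of 15092 genes on all chromosomes that reached the same signal. The chromosome was chosen by the median differences of its probe sets between LM2 or LM1 and SN12C, so every difference between those lines below is a description of the values that chose it, and none is offered as a test of a chromosome-wide shift.

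SN12C is an established human renal cell carcinoma line, labelled as parental and without metastatic activity, and was measured on 2 arrays. LM1 is its lung metastatic line of generation 1, with a single array, and LM2 is that of generation 2, with 2 arrays. The labels name no genetic change or treatment in any line, and the design text asks which expression differences go with rising metastatic activity. The SN12C and LM2 arrays are labelled as biological replicates, but whether they came from separate cultures is not stated, so p-values measure only the spread between these arrays.

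Chromosome 14 is acrocentric, so nearly all its genes lie on the long arm, in an order that runs from the T cell receptor alpha region near the centromere to the immunoglobulin heavy chain locus at the far end. Loss of the long arm is a recurrent change of clear cell renal carcinoma, and HIF1A, a hypoxia-responsive transcription factor, is its best known gene in this tumour. Between the ends lie housekeeping genes of many kinds, a cluster of serine protease inhibitors and the imprinted DLK1-MEG3 region.

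The arrays were checked against markers of a renal epithelial tumour line. All 6 markers of that kind with a named probe set reached log2 6, PAX8, the renal lineage transcription factor, at 9.19 to 9.82 and PAX2 only at 6.34 to 6.46. Reaching 6 does not set cell types apart on these arrays, since 4 of 4 plasma cell, 3 of 4 lung epithelial, 2 of 2 erythroid and 2 of 2 cardiac markers also did. The leukocyte markers PTPRC and LYZ (4.99 to 5.36 and 5.22 to 5.25) stayed under 6. CD3E and CD14 (6.36 to 7.05 and 6.19 to 7.16), 2 of 5 markers of that list, reached it on every array, and MS4A1 only on SN12C replicate 1 (6.37). Of 4 fibroblast markers 3 reached 6, and their summed log2 signal was 25.9 and 28.4 in SN12C, 29.8 in LM1 and 30.3 and 30.4 in LM2, mainly through COL3A1, while LUM lay between 4.08 and 4.37. Their part in the differences below was not tested. Array medians lay between 6.51 and 6.57, and the SD over all values was 2.11 on SN12C replicate 1 against 2.22 to 2.25 on the other arrays. On the LM1 array the 3' signal of beta-actin exceeded the 5' signal by 3.43 log2 units, against 0.07 to 0.47 on the others, and for GAPDH by 2.09, against -0.07 to 0.14. The part of this RNA or labelling difference in the LM1 values was not tested.

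Promoter sequences are shown for 2 genes of tumour necrosis factor and NF-kappaB signalling that stood lower in LM2 and for 2 of the genes that stood highest in it. The 250 bases before each start site are from RefSeq on GRCh38.p14, given on the strand of the gene. NFKBIA encodes the inhibitor that holds NF-kappaB in the cytoplasm, and TNFAIP2 is a gene induced by tumour necrosis factor. Capitals mark a match to the NF-kappaB motif, searched on both strands. The window of NFKBIA, chr14:35404750-35404999 on the minus strand, held 1 match whose first base is at -81, and that of TNFAIP2, chr14:103123211-103123460 on the plus strand, held 0.
NFKBIA: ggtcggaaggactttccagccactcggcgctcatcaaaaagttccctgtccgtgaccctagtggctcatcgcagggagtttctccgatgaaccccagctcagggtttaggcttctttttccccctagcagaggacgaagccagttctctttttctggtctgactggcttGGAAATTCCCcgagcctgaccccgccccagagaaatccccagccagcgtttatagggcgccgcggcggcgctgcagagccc
TNFAIP2: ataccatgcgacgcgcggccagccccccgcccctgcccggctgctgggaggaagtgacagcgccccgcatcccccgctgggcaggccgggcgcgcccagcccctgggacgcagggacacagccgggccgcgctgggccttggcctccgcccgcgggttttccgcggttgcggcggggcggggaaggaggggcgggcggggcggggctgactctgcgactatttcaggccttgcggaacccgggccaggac
Among genes whose SN12C and LM2 arrays did not overlap, taken by their brightest probe set, UBR7 had the second largest LM2 difference. POLE2 encodes a subunit of DNA polymerase epsilon and UBR7 a ubiquitin ligase of the UBR-box family. They are not of 1 pathway. Here capitals mark a match to TTTCCCGC or TTTGGCGC on either strand, the motif of E2F, the factors that drive genes of DNA replication. UBR7, chr14:93207006-93207255 on the plus strand, held 1 match with its first base at -12, and POLE2, chr14:49688215-49688464 on the minus strand, held 0. The windows of the replication and cell cycle genes PARP2, FANCM, WDHD1, CDKN3 and DLGAP5, not printed, held 0 each.
POLE2: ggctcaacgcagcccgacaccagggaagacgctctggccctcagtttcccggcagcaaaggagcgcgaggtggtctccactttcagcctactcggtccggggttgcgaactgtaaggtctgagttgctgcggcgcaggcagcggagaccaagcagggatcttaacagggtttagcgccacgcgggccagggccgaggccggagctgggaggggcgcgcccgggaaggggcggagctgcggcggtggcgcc
UBR7: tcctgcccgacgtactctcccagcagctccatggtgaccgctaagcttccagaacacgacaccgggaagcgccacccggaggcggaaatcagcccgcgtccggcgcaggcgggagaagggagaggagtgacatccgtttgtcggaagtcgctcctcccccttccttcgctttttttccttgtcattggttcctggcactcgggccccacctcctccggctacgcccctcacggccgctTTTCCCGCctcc

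Of the 463 genes, 396 matched a RefSeq promoter. The NF-kappaB motif occurred in 11.1% of these, in 11.7% of the 11996 promoters of measured genes of all chromosomes and in 9.57% of the 27305 promoters of the table. For the E2F motif the shares were 2.78%, 2.85% and 1.96%. The motif CCAAT, read on both strands, was held by 86 of the 217 promoters of genes whose LM2 arrays both lay above both SN12C arrays (39.6%), by 2 of the 23 promoters of genes on the opposite side (8.7%) and by 34.3% of the promoters of all measured genes (33.0% of the table). TATAAA was held by 9 of these 217 (4.15%), by 4 of the 23 (17.4%) and by 6.36% of those of all measured genes (11.1% of the table). The 2 motifs marked in the printed sequences differed little between the sides. NF-kappaB was held by 20 of the 217 (9.22%) and 2 of the 23 (8.7%), and E2F by 9 (4.15%) and 1 (4.35%). The genes on the higher side were also brighter, with a median signal of 9.61 against 7.8. These matches are descriptions of letters and were not tested.

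In LM2 most chromosome 14 genes read somewhat higher than in SN12C. The value of a gene is that of its member probe set with the highest mean. The LM2 mean was above the SN12C mean for 338 of 463 genes (73.0%, beside 55.3% of all genes), below it for 119 and equal for 6. With each array centred on its median over all probe sets, 290 genes (62.6%) were higher. The median difference was 0.23 log2 units over these genes and 0.03 over all genes, and the middle 50% of chromosome 14 genes lay between -0.01 and 0.49. Against SN12C replicate 1 the median was 0.35 and against replicate 2 it was 0.12, so the size of the shift depends on which SN12C array is used. Both LM2 arrays lay above both SN12C arrays for 239 genes (51.6%, beside 25.2% of all genes) and below both for 25 (5.40%, beside 14.1%). A difference of at least 1 log2 unit, a doubling of signal, was reached by 20 genes on the higher side (4.32%, beside 1.72% of all) and by 1 on the lower (0.216%, beside 1.26%).

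No probe set passed the threshold. In limma, with Benjamini-Hochberg adjustment over all 27917 probe sets, 0 of the 889 had an adjusted p under 0.05 for LM2 against SN12C (0% of all probe sets; lowest adjusted p = 0.3). At an unadjusted p under 0.05 there were 131 (14.7%, beside 10.3% of all), 127 of them higher in LM2. With 2 arrays on each side, the smallest two-sided p of an exact permutation test is 0.333, and the number of arrays limits the precision of every value here.

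**Figure D1:**
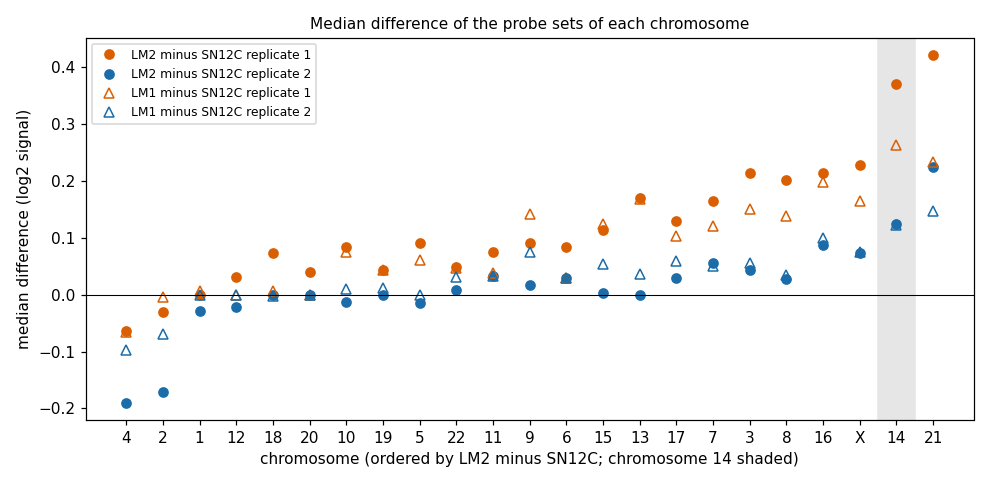
Median difference in log2 signal of the probe sets of each chromosome, ordered by LM2 minus SN12C, for the LM2 mean (filled circles) and LM1 (open triangles) against SN12C replicate 1 (orange) and replicate 2 (blue). Chromosome 14 (shaded, 0.37 and 0.12 for LM2) stands next to chromosome 21 at the upper end, and chromosome 4 at the lower.

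Set beside the other chromosomes, chromosome 14 had the second highest median over probe sets for LM2 against SN12C. The median was 0.24 for chromosome 14, 0.33 for chromosome 21, 0.16 for the X chromosome and 0.15 for chromosome 16, and the lowest was -0.14 for chromosome 4. For LM1 against SN12C the median was 0.18 on chromosome 14 and 0.21 on chromosome 21. The SN12C arrays also differed from each other on chromosome 14: replicate 2 exceeded replicate 1 by a median of 0.20 over its probe sets and 0.11 over all probe sets. Array pairs that share no array gave medians of 0.37 for LM2 replicate 1 minus SN12C replicate 1 and 0.12 for LM2 replicate 2 minus SN12C replicate 2, against 0.09 and 0.00 over all probe sets.

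The shift went with signal. In the brightest part of the probe sets, with a mean signal over 8.81, 92.2% of 307 chromosome 14 probe sets were higher in LM2 than the SN12C mean, against 69.3% of all probe sets that bright. Among those with a mean of 7.14 or less, 53.5% of 288 were higher, against 44.7%. Both LM2 arrays lay above both SN12C arrays for 76.55% of the brightest chromosome 14 probe sets, against 36.6% of all that bright. Among the dimmest this share was 19.8%, against 13.0%. Against SN12C replicate 2 alone, the brightest probe sets were higher in 87.6% on chromosome 14 and in 51.7% over all chromosomes, and against replicate 1 in 92.5% and 74.5%. The medians of these brightest probe sets were 0.21 on chromosome 14 and 0.01 over all chromosomes against replicate 2, and 0.71 and 0.32 against replicate 1. The bright probe sets also differed between the SN12C arrays, with medians of 0.45 on chromosome 14 and 0.32 over all chromosomes for replicate 2 minus replicate 1. Protein-coding genes had a median LM2 minus SN12C difference of 0.26 (421 genes; 0.05 over all protein-coding genes), and the 42 other genes, mainly long non-coding RNAs, one of -0.04 (-0.04 also over all genes of that kind). These other genes were also dimmer, with medians per array of 6.65 to 6.80 against 8.33 to 8.99 for the protein-coding genes. The part of signal in this contrast was not tested.

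**Figure D2:**
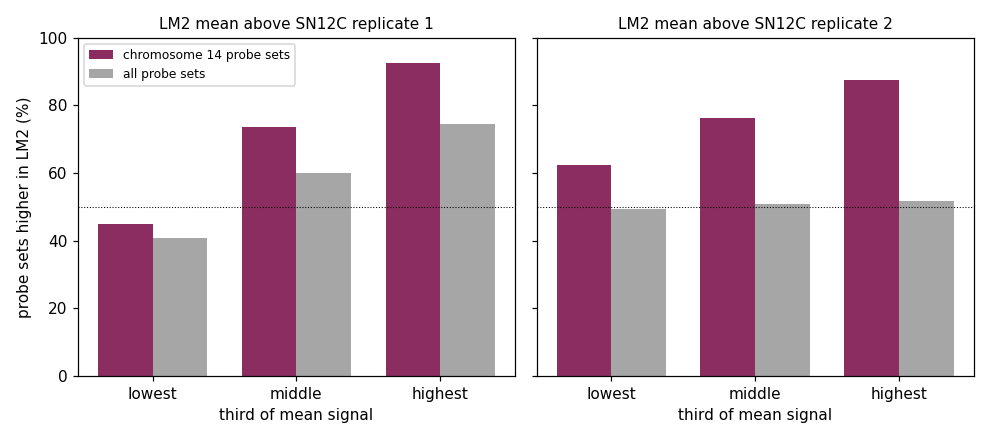
Share of probe sets (%) whose LM2 mean exceeded SN12C replicate 1 (left) or replicate 2 (right), for the lowest, middle and highest part of the mean signal over 5 arrays; purple bars are chromosome 14, grey bars all probe sets, and the dotted line marks 50%. In the brightest part the chromosome 14 shares are 92.5% and 87.6%, against 74.5% and 51.7% of all probe sets.

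For the counts of each functional list below, the shares over all chromosome 14 genes were 73.0% higher in LM2, 51.6% higher without overlap and 5.40% lower without overlap. Over all genes they were 55.3%, 25.2% and 14.1%. The lists were not set beside genes of like signal, so the part of signal in their counts and medians was not tested. Genes of DNA replication and repair stood highest among the functional lists. Over the 12 measured genes the median was 0.64 log2 units for LM2 minus SN12C (1.03 against replicate 1 and 0.29 against replicate 2), 11 were higher and 10 had arrays that did not overlap. POLE2 read 9.31 and 10.13 in SN12C, 10.46 in LM1, and 10.91 and 10.85 in LM2. Both LM2 arrays were above every other array, and the LM2 minus SN12C difference was 1.16 ± 0.33 (SE from the limma fit, as for the values that follow). FANCM, a DNA translocase of the Fanconi anaemia pathway, read 5.56 and 7.45 in SN12C, 7.70 in LM1, and 7.70 and 7.66 in LM2. Here SN12C replicate 1 stood apart and replicate 2 lay near the other lines, so the difference of 1.18 ± 0.75 (SE) rests on 1 array, and its other probe sets gave 0.00 and 0.26. PARP2, which marks DNA breaks with ADP-ribose, read 10.23 and 11.13 in SN12C, 11.57 in LM1, and 11.68 and 11.76 in LM2, and its other probe sets gave 0.97 and 1.12. SIVA1, a proapoptotic protein also linked to DNA repair, read 10.27 and 11.20, then 11.81, then 11.87 and 11.78, and its other probe sets gave 0.05 and 1.11. APEX1, the main endonuclease of base excision repair, read 12.23 and 12.49 in SN12C, 12.36 in LM1, and 13.03 and 12.98 in LM2, so that LM2 alone stood above SN12C.

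All 20 measured genes of cell cycle and mitosis were higher in LM2 than the SN12C mean, 17 of them without overlap, with a median of 0.47 (0.71 and 0.28 against the separate SN12C arrays). With centred or quantile-normalized arrays 19 were higher. NEK9, a kinase of mitotic spindle assembly, read 8.50 and 8.73 in SN12C, 9.92 in LM1, and 9.78 and 9.67 in LM2. The metastatic lines stood clear of both SN12C arrays, and the LM2 difference was 1.11 ± 0.12 (SE), but its other probe sets gave -0.14 and 0.56. WDHD1, a replication fork protein, read 7.77 and 9.06 in SN12C, 9.72 in LM1, and 9.46 and 9.43 in LM2, with SN12C replicate 1 lowest by a wide margin, and its other probe sets gave 0.74 and 1.27. NIN (ninein) and CEP128, both centriole proteins, were higher in LM2 by 0.93 and 0.92, and by 0.24 to 1.31 and 0.23 to 0.66 in their other probe sets. CDKN3, a phosphatase that acts on cyclin-dependent kinases, read 10.86 and 12.06 in SN12C, 11.43 in LM1, and 12.32 and 12.31 in LM2, so LM1 lay between the SN12C arrays.

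RNA processing genes had a median of 0.51, with 17 of 19 higher in LM2 and 15 without overlap. METTL3, the catalytic subunit of the mRNA adenosine methyltransferase, read 8.79 and 10.24 in SN12C, 10.14 in LM1, and 10.62 and 10.72 in LM2. LM1 lay within the SN12C range, and the other probe sets of METTL3 gave smaller LM2 differences of 0.28 and 0.31 beside the 1.15 of its brightest. GEMIN2, of the SMN complex that assembles splicing particles, was higher by 0.90 and its other probe sets by 0.66 to 0.92. RBM23 and RBM25, both RNA-binding proteins of splicing, were higher by 0.88 and 0.85. The other 5 probe sets of RBM25 did not point 1 way, at -0.21, -0.11, 0.04, 0.75 and 1.06. In translation, 9 of 12 genes were higher, all 9 without overlap, and 2 were lower without overlap (median 0.33). EIF2S1, the alpha subunit of initiation factor eIF2, read 11.69 and 12.28 in SN12C, 12.63 in LM1, and 12.42 and 12.58 in LM2, and RPL10L, a retrogene copy of a ribosomal protein gene, was on the lower side.

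Most genes of protein quality control read higher. The 5 proteasome genes, among them PSMC1, PSMC6 and PSMB5 of the core and cap and the activator PSME1, all lay higher in LM2 with a median of 0.33, 3 without overlap. Against SN12C replicate 2 their median was 0.13. The 13 ubiquitin ligase genes had a median of 0.39, with 10 higher and 9 without overlap. UBR7 read 8.67 and 9.86 in SN12C, 10.36 in LM1, and 10.58 and 10.56 in LM2, a difference of 1.31 ± 0.47 (SE) in which the distance between the SN12C arrays was 1.19. SOCS4, a cytokine-signalling suppressor of the ligase adaptor type, read 7.33 and 8.81 in SN12C, 9.57 in LM1, and 9.18 and 9.09 in LM2. All 5 genes of the chaperone list, which also holds the oxidase ERO1A and the RING-finger protein CGRRF1, were higher without overlap (median 0.49), including HSP90AA1, the inducible HSP90, which was the brightest of them at 14.03 and 14.19 in SN12C, 14.53 in LM1 and 14.37 in both LM2 arrays.

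Of 25 genes of membrane traffic and the Golgi, 24 were higher in LM2 and 18 did so without overlap, with a median of 0.35. ARF6, a small GTPase of endosome recycling, read 10.77 and 11.09 in SN12C, 12.13 in LM1, and 11.79 and 11.74 in LM2, with both metastatic lines well clear of SN12C, and its other probe sets gave 0.22, 0.73 and 1.16. TMED8 and TRIP11, the golgin GMAP-210, were higher in LM2 by 0.86 and 0.95, but other probe sets gave -0.02 and 0.46 for TMED8 and -0.22 and 0.87 for TRIP11. Metabolic genes were mixed: 24 of 34 were higher (70.6%, beside 73.0% of all chromosome 14 genes), 16 without overlap. Of the others 3 were lower without overlap, and the median of the list was 0.25. SPTLC2, a subunit of the enzyme that starts sphingolipid synthesis, read 9.37 and 9.44 in SN12C, 10.68 in LM1, and 10.36 and 10.43 in LM2. Replicates of each line lay close together, the LM2 difference was 0.99 ± 0.08 (SE), and its other 3 probe sets gave 0.97, 1.29 and 1.40. ALDH6A1, of valine breakdown, read 8.02 and 8.16 in SN12C, 7.94 in LM1, and 9.12 and 9.29 in LM2, so it was high in LM2 alone (1.11 ± 0.11, SE), and its other probe sets gave 0.83 and 0.84. LYSET, needed to sort enzymes to lysosomes, and PNP, a purine salvage enzyme, were higher by 0.91 and 0.78.

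Among regulatory genes 77.8% of the transcription factors were higher in LM2, near the 73.0% of all chromosome 14 genes. The signalling genes stood below that share, at 64.3%. Of 27 transcription factors and cofactors 21 were higher in LM2, 14 without overlap, and 1 was lower without overlap (median 0.20). SIX4, a homeobox factor, read 7.52 and 8.75 in SN12C, 9.35 in LM1, and 9.26 and 9.14 in LM2, and its other probe set gave 0.46. Of 28 kinase, phosphatase and signalling genes 18 were higher, 12 without overlap, and 5 were lower without overlap (median 0.18, and 0.04 against SN12C replicate 2). AKT1, the kinase downstream of PI3K, read 9.16 and 9.54 in SN12C, 10.04 in LM1, and 10.25 and 9.89 in LM2, so all 3 arrays of the metastatic lines lay above SN12C (0.72 ± 0.22, SE). SAV1, a scaffold of the Hippo pathway, gave 1.15 by its brightest probe set but -0.15, -0.07, -0.00 and 0.65 by the others.

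The list of matrix, adhesion and secretion is broad and has loosely placed members such as NRDE2, SLC7A7, SLC7A8 and SPTB. It showed little shift as a list: 14 of 25 were higher in LM2, 7 without overlap, and 2 were lower without overlap. Its median was 0.02 (-0.02 with quantile normalization and -0.07 with centring). Single members stood out. LGALS3, the carbohydrate-binding protein galectin-3, read 9.06 in both SN12C arrays, 10.09 in LM1, and 10.27 and 9.92 in LM2, a difference of 1.03 ± 0.16 (SE). Its SN12C arrays hold equal deposited values, which shrinks the estimated spread behind this SE. FERMT2 (kindlin-2), an activator of integrins, was higher by 0.46 and its other probe sets by 0.73 and 1.01. COCH, a secreted matrix protein, read 8.98 and 10.43 in SN12C, 8.94 in LM1, and 10.30 and 10.37 in LM2, so LM2 lay between the SN12C arrays and LM1 just below the lower of them.

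**Figure D3:**
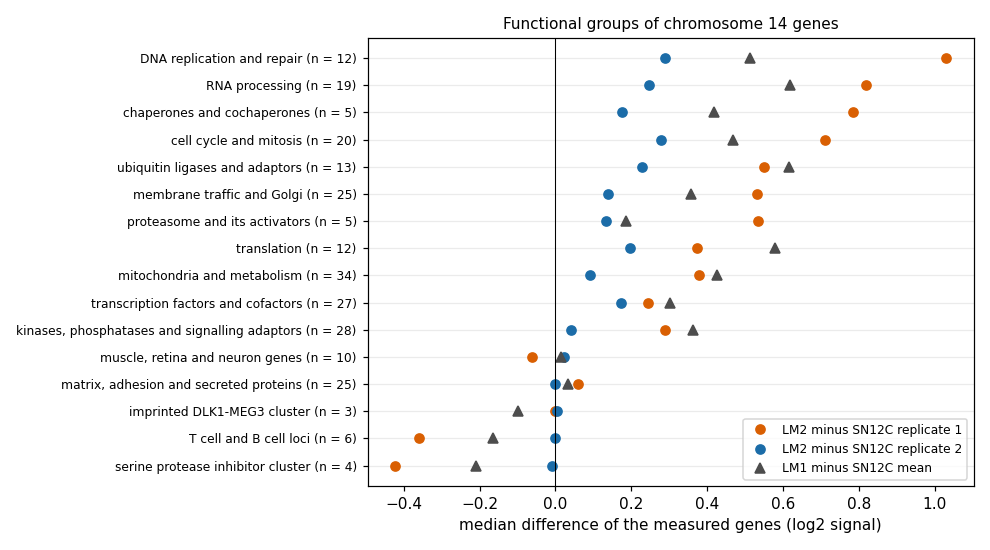
Median difference (log2 signal) of the measured genes of each functional list with 3 or more of them, for the LM2 mean against SN12C replicate 1 (orange) and replicate 2 (blue) and for LM1 against the SN12C mean (triangles); n is the number of measured genes. DNA replication and repair stands highest against replicate 1 at 1.03 (0.29 against replicate 2), while the serine protease inhibitors and the T cell and B cell loci lie at or below 0 for LM2.

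Genes known mainly from other tissues had list medians near or below 0. The 4 measured serine protease inhibitors, SERPINA9, SERPINA1, SERPINA4 and SERPINA5, had a median of -0.20, and none was higher in LM2 than the SN12C mean. Against SN12C replicate 2 alone their median was -0.009. SERPINA1, alpha-1-antitrypsin, read 7.15 and 6.54 in SN12C, 6.65 in LM1, and 6.62 and 6.65 in LM2, so only SN12C replicate 1 stood higher. The 6 genes of the T cell and B cell loci had a median of -0.16, with 1 higher in LM2, but of -0.00 against SN12C replicate 2 alone. CTSG, cathepsin G of neutrophil granules, was the 1 measured gene of its list, at -0.20 (0.00 against replicate 2). The 3 measured genes on the list of the imprinted region, DLK1, MEG3 and DIO3, had a median of 0.00 (-0.09 with centring). DIO3OS, which lies between MEG3 and DIO3 but was not on the list, was lower without overlap at -0.27. Its other probe set gave -0.02. The 10 genes of muscle, retina and neurons had a median of 0.03 (-0.06 with centring), with TTLL5, a tubulin-modifying enzyme, highest at 0.80, although its other probe sets gave -0.31 and -0.01.

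The genes lower in LM2 were fewer and their differences smaller. NFKBIA read 11.55 and 11.23 in SN12C, 11.45 in LM1, and 10.96 and 10.82 in LM2. LM1 lay within the SN12C range and both LM2 arrays below it (-0.51 ± 0.15, SE), while a second, dimmer probe set gave 0.05. TNFAIP2 read 9.51 and 8.81 in SN12C, 9.15 in LM1, and 8.74 and 8.62 in LM2, again with LM1 within the SN12C range and with LM2 just below SN12C replicate 2, and its other probe set gave -0.08. PRKCH, protein kinase C eta, read 6.81 and 7.97 in SN12C, 6.81 in LM1, and 6.05 and 6.58 in LM2, near the signal threshold, and was the gene farthest down at -1.07 ± 0.51 (SE). Its other probe sets gave -0.67 and 0.13. PGF, the angiogenic placental growth factor, read 9.43 and 8.85 in SN12C, 9.27 in LM1, and 8.81 and 8.72 in LM2, with LM2 replicate 1 only just under SN12C replicate 2. DHRS1 and DHRS2, both short-chain dehydrogenases, were lower by 0.44 and 0.38 on the log2 scale (-0.44 and -0.38), and a further probe set of DHRS2 gave -1.06. GALC, the lysosomal enzyme that cleaves galactosylceramide, read 9.37 and 9.66 in SN12C, 8.68 in LM1, and 9.14 and 9.18 in LM2, lower in both metastatic lines and lowest in LM1, while its other probe set gave 0.09 for LM2. RPL10L, CBLN3, AP1G2-AS1, DIO3OS and RHOJ completed the 12 largest on this side among genes whose arrays did not overlap, between -0.48 and -0.21.

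**Figure D4:**
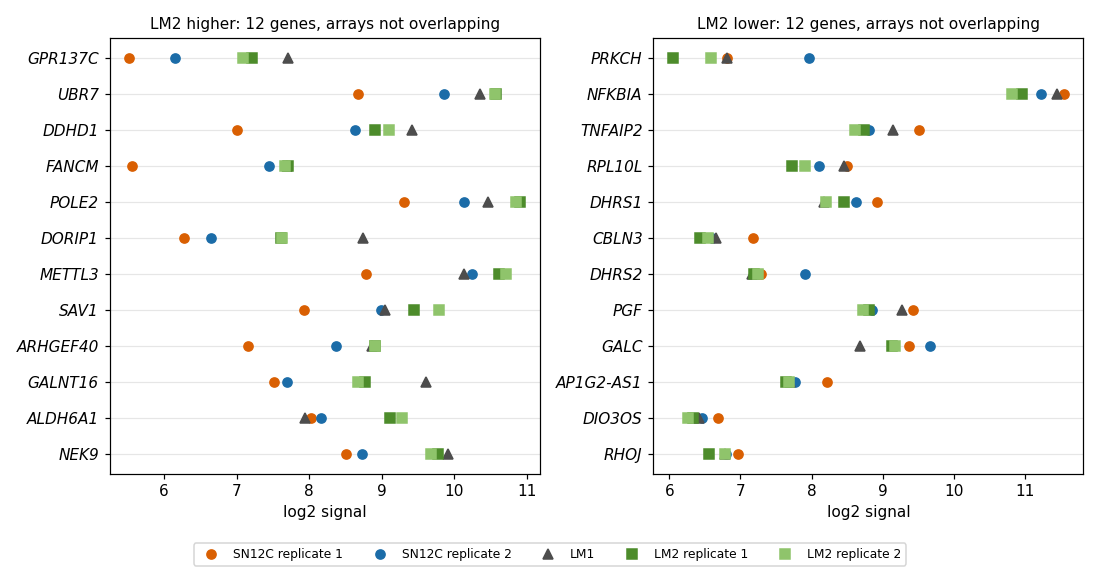
Log2 signal of each array for the 12 genes with the largest LM2 minus SN12C difference on the higher (left) and lower (right) side whose SN12C and LM2 arrays do not overlap; circles are SN12C replicates 1 (orange) and 2 (blue), the triangle is LM1 and squares are LM2. On the left the LM2 squares lie close together and SN12C replicate 1 is lowest for most genes, as for FANCM at 5.56 against 7.45 in replicate 2; on the right NFKBIA is the brightest gene.

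Among the remaining genes at the top, GPR137C, a membrane protein, read 5.52 and 6.16 in SN12C, 7.71 in LM1, and 7.21 and 7.09 in LM2. SN12C replicate 1 lay under the signal threshold of 6 and replicate 2 just above it, so its difference of 1.31 is uncertain in size. DORIP1 read 6.28 and 6.64 in SN12C, 8.74 in LM1 and 7.62 in both LM2 arrays, and GALNT16, an enzyme that starts O-linked glycans, read 7.52 and 7.70, then 9.62, then 8.78 and 8.67. In both, LM1 exceeded LM2 and LM2 exceeded SN12C, with gaps between the lines larger than those between replicates. Their other probe sets gave smaller LM2 minus SN12C differences, 0.18 for DORIP1 and 0.08 and 0.82 for GALNT16. DDHD1, a phospholipase, was higher in LM2 by 1.18, with SN12C replicate 1 far below replicate 2, and its further probe sets gave 0.05 to 0.81.

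The spread behind these values differed between the lines. The median absolute gap between replicates was 0.324 log2 units in SN12C and 0.068 in LM2 over the 463 genes, and 30 genes stood at least 1 apart in SN12C and 0 in LM2. SN12C replicate 2 was above replicate 1 for 303 genes (65.4%, beside 57.4% of all genes). LINC00520, a long non-coding RNA, was the clearest case in the other direction, with 10.66 and 9.07 in SN12C, 9.42 in LM1, and 9.08 and 9.27 in LM2. Of 232 genes with more than 1 member probe set, 154 had all of them on the same side of 0 for LM2 minus SN12C, and 17 spanned at least 1 log2 unit between probe sets. Some of the probe sets can bind several transcripts, by their suffixes _x_at (80 members) and _s_at (254 members).

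LM1 read higher than SN12C on chromosome 14 as well, by a median of 0.29 over genes (0.09 over all genes), 0.39 against SN12C replicate 1 and 0.19 against replicate 2. It was above the SN12C mean for 330 genes (71.3%, beside 60.1% of all), above both SN12C arrays for 270 (58.3%, beside 45.1%) and below both for 54 (11.7%, beside 20.8%). It stood at least 1 log2 unit above each SN12C array for 27 genes (5.83%, beside 3.06%) and as far below each for 1 (0.216%, beside 1.18%). Over the 889 probe sets the LM1 median was 0.18, with 48 that far above (5.40%, beside 2.91%) and 27 that far below (3.04%, beside 4.59%). LM1 lay below both SN12C arrays for 19.9% of them (beside 28.3%). The near absence of falls over genes thus depends on taking the brightest probe set of each. LM1 and LM2 share the SN12C arrays in these comparisons, so their values are set side by side only. In limma 0 of 889 probe sets passed an adjusted p of 0.05 (0% of all probe sets; lowest adjusted p = 0.0731) and 243 had an unadjusted p under 0.05 (27.3%, beside 24.4% of all), but LM1 has no replicate and is assumed to vary like the other lines. Genes highest in LM1 included CDC42BPB, a kinase of the actin cytoskeleton, at 8.27 and 8.61 in SN12C, 10.20 in LM1, and 9.34 and 8.95 in LM2. STYX, a catalytically inactive phosphatase, read 8.33 and 8.40 in SN12C, 10.11 in LM1, and 8.76 and 8.95 in LM2. For these probe sets of both genes, LM1 stood above each LM2 array by more than the LM2 arrays stood above SN12C replicate 2. Lowest in LM1 was FCF1, a factor of ribosome assembly, at 6.49 and 7.78 in SN12C, 5.16 in LM1, and 7.63 and 8.12 in LM2. Its other probe set gave -0.01 for LM2 minus SN12C, which does not bear on LM1. The low LM1 value of FCF1 is thus given for 1 probe set on the array with the high 3' to 5' values, whose part in it was not tested. OXA1L, which inserts proteins into the inner mitochondrial membrane, read 11.46 and 11.77 in SN12C, 10.72 in LM1, and 11.91 and 12.11 in LM2.

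The median difference between LM2 and LM1 was small over the chromosome as a whole, although LM1 lay outside the range of the LM2 arrays for most genes. The LM2 minus LM1 median was -0.06 over its genes and -0.07 over all genes, and LM1 lay above both LM2 arrays for 241 genes (52.1%, beside 51.9% of all) and below both for 139 (30.0%, beside 27%). In limma 0 passed (0% of all probe sets; lowest adjusted p = 0.0999), and 183 probe sets had an unadjusted p under 0.05 (20.6%, beside 21.8% of all), 86 higher in LM2 and 97 lower.

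Along the chromosome the LM2 shift was present in nearly every stretch. The genes were ordered by start and taken in 23 runs of 20, with 3 left at the end. The LM2 minus SN12C median was above 0 in 22 of the 23 runs, and above 0 in all 23 against SN12C replicate 2. The highest was 0.52, from POLE2 to GPR137C, followed by 0.47 from ERO1A to KTN1, and the lowest was -0.08 in the run from CCDC197 to BDKRB1, which holds the serine protease inhibitors. With the ordered genes in 5 parts of 92 or 93, from the centromere outwards, the LM2 medians were 0.15 (DUXAP10 to PRKD1), 0.36 (G2E3 to CCDC198), 0.23 (ACTR10 to NPC2), 0.22 (ISCA2 to DICER1-AS1) and 0.19 (CLMN to ADAM6).

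The longest unbroken row of genes with both LM2 arrays above both SN12C arrays had 10 members: RTRAF, TXNDC16, GPR137C, ERO1A, PSMC6, STYX, GNPNAT1, FERMT2, DDHD1 and CDKN3, with differences between 0.25 and 1.31. They are not of 1 kind, since they include an oxidase of the endoplasmic reticulum (ERO1A), a proteasome ATPase (PSMC6), an enzyme of the hexosamine pathway (GNPNAT1) and an integrin activator (FERMT2). GNPNAT1 read 9.21 and 9.63 in SN12C, 10.77 in LM1, and 10.33 and 10.37 in LM2. Rows of 6 ran from LRR1 to KLHDC2 (0.37 to 1.16) and from ITPK1 to BTBD7 (0.37 to 1.31), and a row of 5 ran from PARP2 to PNP (0.61 to 1.04). These rows were found by their values. Both LM2 arrays lay above both SN12C arrays for 51.6% of the genes of the chromosome, so some unbroken rows can occur in any gene order. The row lengths were not set beside those of a shuffled order or of other chromosomes. Whether such genes lie together more than this share would give was not tested.

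**Figure D5:**
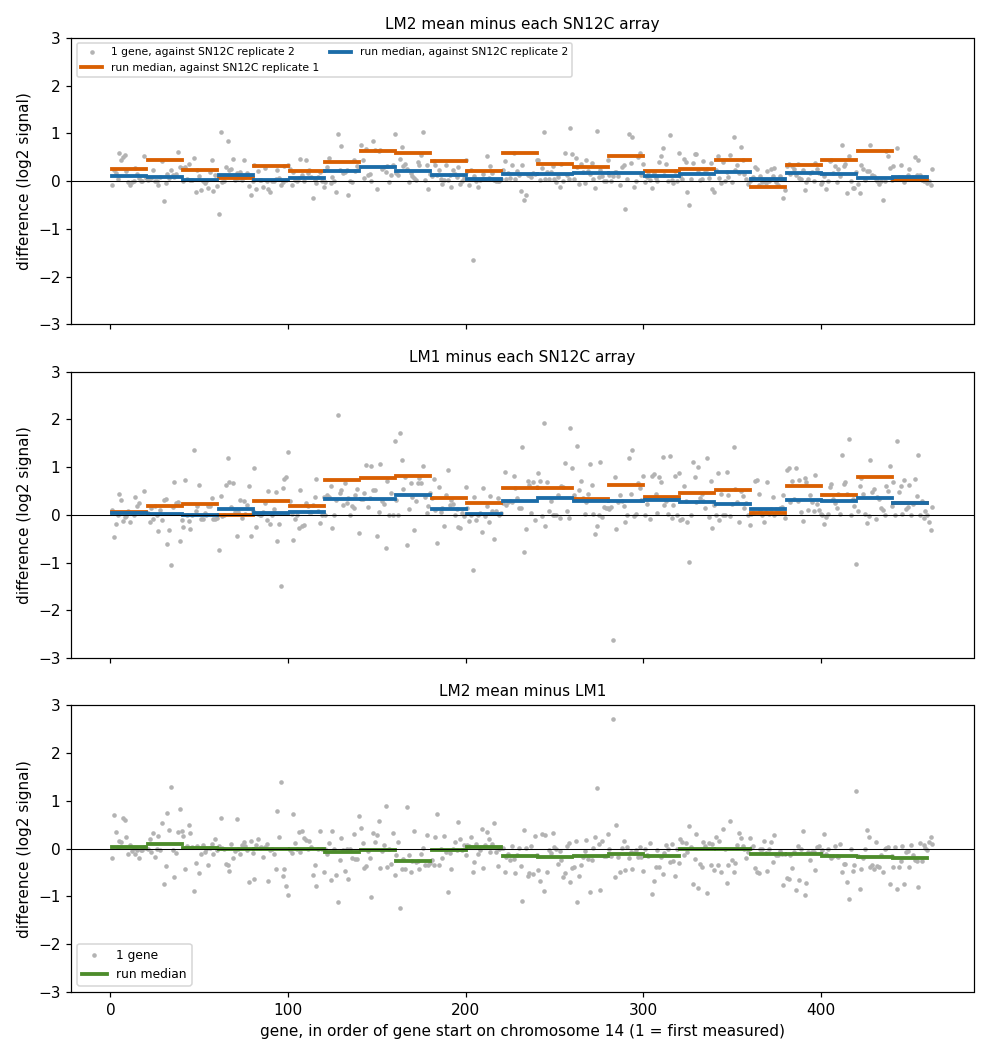
Difference in log2 signal of each gene (grey dots; against SN12C replicate 2 in the upper panels) in order of gene start along chromosome 14, with medians of runs of 20 genes, for LM2 against each SN12C array (top), LM1 against each SN12C array (middle) and LM2 against LM1 (bottom); orange lines are against SN12C replicate 1, blue against replicate 2. The run medians of LM2 against replicate 2 lie above 0 throughout, while those of LM1 against replicate 2 lie between 0.00 and 0.12 in the first 6 runs and reach 0.41 beyond them.

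The LM1 profile was less even. Against SN12C replicate 2 the LM1 medians of the first 6 runs, the 120 genes from DUXAP10 to MIPOL1, lay between 0.00 and 0.12, and those of the 17 later runs, from CLEC14A onward, between 0.02 and 0.41. Over genes the medians were 0.05 before this point and 0.26 after it, against 0.07 over all genes. For LM2 against the same array they were 0.06 and 0.13, against 0.00 over all genes. Among bright genes, with a mean over 8.81, LM1 was above SN12C replicate 2 for 22 of 47 (46.8%) before the point and 129 of 161 (80.1%) after it, against 59.4% of all bright genes, with medians of -0.03 and 0.40. LM2 was above it for 41 of the same 47 and for 137 of the 161, against 52.3% of all bright genes. LM1 lay above both LM2 arrays for 36.7% of genes before the point and 57.4% after, beside 51.9% of all genes. Over probe sets these shares were 40.2% and 46.9%, beside 45.7% of all probe sets. The point was placed after the values were seen, the difference was not tested, and over all probe sets in place of 1 per gene it was smaller (0.06 before and 0.14 after for LM1 against SN12C replicate 2). It rests on the single LM1 array, with the high 3' to 5' values given above, whose part in it was not tested.

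At the signal threshold the members shade into background without a step. The dimmest members, probe sets of TRAV12-2, DYNC1H1, PLD4 and GPATCH2L, had a second-highest signal of 6.01, and the first to miss it, of GARIN2, AP1G2, GSC and again GPATCH2L, had 5.99 to 6.00. Of the 1306 chromosome 14 probe sets with 1 gene (611 genes), 403 were below the threshold. Only 7 members had both SN12C arrays under 6 and 6 had both LM2 arrays under 6, so few passed through the group in which they were high.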

How the data were processed

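Total RNA of 3 renal carcinoma lines was hybridised to 5 Affymetrix arrays. The deposited values are log2 signals, 1 for each probe set on each array, which the authors made with RMA and Partek (per the submitters' processing notes, versions not stated there). RMA subtracts background, normalizes between arrays and combines probes. The deposited distributions still differ somewhat between arrays. Values were used as deposited. Of 42898 probe sets named by the platform table, 41097 had 1 gene, and 41043 of these matched the RefSeq gene table (GRCh38.p14) by gene identifier. It gave names, chromosomes and gene order.

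A model with 1 mean per line was fitted over all 27917 probe sets at log2 6 or more in 2 arrays (limma 3.58.1 in R 4.3.3, lmFit and eBayes, two-sided, Benjamini-Hochberg threshold 0.05), with 2 residual and 1.24 prior degrees of freedom, and was tested on simulated data. Equal deposited values in both replicate arrays (33 members in SN12C, 121 in LM2) shrink the estimated spread. Medians and counts carry no test. Named genes were the 12 largest LM2 differences on each side without overlap, the 5 largest LM1 differences on each side, the 5 largest SN12C gaps, up to 4 members of each of 17 functional lists (broad lists with some loosely placed members, such as ABCD4 in translation, PCNX1 and CLMN in RNA processing and NEMF and MBIP in DNA repair), and the first and last gene. APEX1, CDKN3, HSP90AA1, GNPNAT1, the probe sets at the threshold and the members of unbroken rows were named after their values were seen. The members and lists were chosen with earlier results of these data known. Alternatives covered the filter, probe set rules, scaling, eBayes options, arrays in the fit, tied values, leaving out single replicates, and replicate number as a block. Figures were drawn with matplotlib 3.10.9.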

Additional observations from a re-analysis of the deposited data

Results flagged for a closer look

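For 3 named genes the LM1 array and both LM2 arrays lay on opposite sides of both SN12C arrays. This difference was not tested, and LM1 is a single array whose 3' signal of beta-actin exceeded its 5' signal by 3.43 log2 units. ALDH6A1 was 1.26 higher in LM2 than in LM1, OXA1L 1.29 higher and EIF5, a translation initiation factor, 1.21 higher. EIF5 read 11.72 and 12.64 in SN12C, 11.62 in LM1, and 12.83 and 12.82 in LM2, and its other probe sets gave LM2 minus SN12C differences from 0.04 to 1.38. In all, 19 of the 463 genes were placed in this way, and 875 of all 15092.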

How the results depend on the processing

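The LM2 minus SN12C median over chromosome 14 probe sets was above 0 under every alternative run, at 0.17 with quantile normalization and 0.15 with each array centred (over all probe sets -0.00 and -0.05), 0.0866 with no filter, 0.37 at a threshold of log2 7, and between 0.12 and 0.37 when 1 array was left out. That for LM1 minus SN12C was 0.35 at a threshold of log2 7, 0.0684 with no filter and 0.29 with 1 probe set per gene, and between 0.12 and 0.26 when 1 array was left out. The small LM2 minus LM1 median was -0.0622 with 1 probe set per gene, -0.0416 without _x_at and _s_at probe sets, -0.0551 with quantile normalization, -0.0889 with centring, and between -0.0163 and 0 when 1 array was left out. Centring moved the SN12C replicate difference from 0.20 to 0.0138, and over all probe sets from 0.11 to -0.07.

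Counts of calls differed between the alternatives. For LM1 against SN12C, 51 passed with quantile normalization, 67 with centring and 12 without tied probe sets (1408, 1993 and 428 over all chromosomes). For LM2 against LM1, 10, 39 and 176 passed with quantile normalization, centring and a fit of those lines alone (559, 1275 and 5139 over all chromosomes). Leaving out 1 array gave 0 to 306 calls for LM2 against SN12C, 0 to 346 for LM1 against SN12C and 0 to 176 for LM2 against LM1, with up to 6850, 8984 and 5139 over all chromosomes. The highest counts came without SN12C replicate 2. Without replicate 1 there were 198 for LM1 against SN12C (5677 over all chromosomes) and again 176 for LM2 against LM1. Fits that lack an SN12C array take their spread from the close LM2 pair alone.

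With the replicate number as a block, 0 calls were made in each comparison and the medians stayed at 0.24, 0.18 and -0.01. The replicate 1 minus replicate 2 differences of SN12C and LM2 correlated at 0.0714 over all probe sets and 0.108 over members. With 1 such difference per line this cannot show whether the numbers mark a batch. The main fit was made without the block. Of 85 named genes, 75 kept the sign of the LM2 difference under all 6 alternatives run for single genes, including all 24 with the largest differences. Those 24 were chosen without overlap between SN12C and LM2 arrays, so leaving out 1 array could not change their sign. For them only quantile normalization and centring were able to do so. ADAM6, AKAP6, COCH, DIO3, DUXAP10, IGHG1, LINC00520, SERPINA1, SYNE2 and TCL1A did not.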
